A study of Mus musculus with 4 samples.

Results

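The genes described here are the 10 that encode NF-κB subunits and their main regulators: the Rel family subunits Nfkb1, Nfkb2, Rela, Relb and Rel, the inhibitors Nfkbia, Nfkbib and Nfkbie, the kinase Ikbkb and the ubiquitin-editing enzyme Tnfaip3. They were taken by exact symbol from the expression table of 17335 genes, where each of the 10 has 1 row. Their mRNA was measured by RNA-seq in gonadal white adipose tissue (gWAT) of female mice of the fl/fl and AD1KO genotypes, all fed a high-fat diet (HFD) for 18 weeks. AD1KO mice carry floxed Dnmt1 alleles and adiponectin-Cre, a driver active mainly in mature adipocytes, so that macrophages and the other cells of the fat pad keep Dnmt1. The fl/fl littermates carry the same floxed alleles, in which loxP sites flank exons 4 and 5. Equal amounts of RNA from 4 animals were pooled in each group and gave 1 library, so the libraries carry no measure of the spread between animals, and no p-value is given. The age of the mice at the start of the diet is not given in the sources used here.

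NF-κB is a family of dimeric transcription factors that switch on inflammatory, survival and immune genes. In resting cells the dimers are held in the cytoplasm by inhibitor (IκB) proteins. In the canonical route, receptors for cytokines and microbial products activate the IκB kinase (IKK) complex, which marks the inhibitors for degradation and lets dimers such as RelA with the Nfkb1 product enter the nucleus. In the noncanonical route, the kinase NIK acts through IKKα to process the Nfkb2 product, the partner of RelB. Several inhibitor genes are themselves NF-κB targets, which gives the pathway negative feedback. In obese adipose tissue the pathway is known for its activity in macrophages and adipocytes.

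The values are deposited FPKM, fragments scaled to transcript length and library size, with 0 written as 0.01. Low values fall in steps of whole reads, and these steps put the depth of the fl/fl library at about 17710000 and that of the AD1KO library at about 17520000 reads. Ratios are on the log2 scale, the AD1KO value divided by the fl/fl value after 0.01 FPKM was added to each, which understates the change of low genes. The 95% interval beside each is an exact Clopper-Pearson interval on estimated reads that covers counting error only. Genes reaching 0.1 FPKM in at least 1 library were kept, which left 15839 genes and all 10 members. Dnmt1 had 6.99 FPKM in the fl/fl library and 3.33 in the AD1KO library (ratio -1.07, interval -1.27 to -0.87), the direction of the labels, in a value that also counts reads outside the deleted exons, and the adipocyte hormone gene Adipoq was at 1911 and 3318 FPKM. Leukocyte marker genes had ratios from -1.29 to -1.16. Deletion and a change in cell mixture cannot be told apart in the Dnmt1 value.

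Each of the 10 NF-κB genes had a log2 ratio below 0, as did 53.8% of all tested genes. A ratio of -0.5 or lower, the size the study used to define a changed gene, was reached by 6 of the 10, namely Rel, Nfkbie, Tnfaip3, Ikbkb, Nfkb1 and Nfkbia, against 19.1% of tested genes. A ratio of 0.5 or higher was reached by 0 of the 10, against 14.3% of tested genes. The median ratio of the members was -0.58, beside -0.04 over all tested genes. The whole counting interval lay below 0 for 8 of the 10, against 29.0% of tested genes, and the exceptions were Rel and Nfkbib. These shares are not matched for level, and intervals are wider where reads are few. By the listed transcript length, all members but Rel had about 140 reads or more in each library, whereas tested genes reach down to 0.1 FPKM. By the shortest annotated transcript, Tnfaip3 had about 27 and 15 reads and Ikbkb 75 and 47. The whole interval then lay below 0 for 6 of the 10. The 10 genes are not replicates of a condition, and the libraries were compared with no replicate check.

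**Figure D1:**
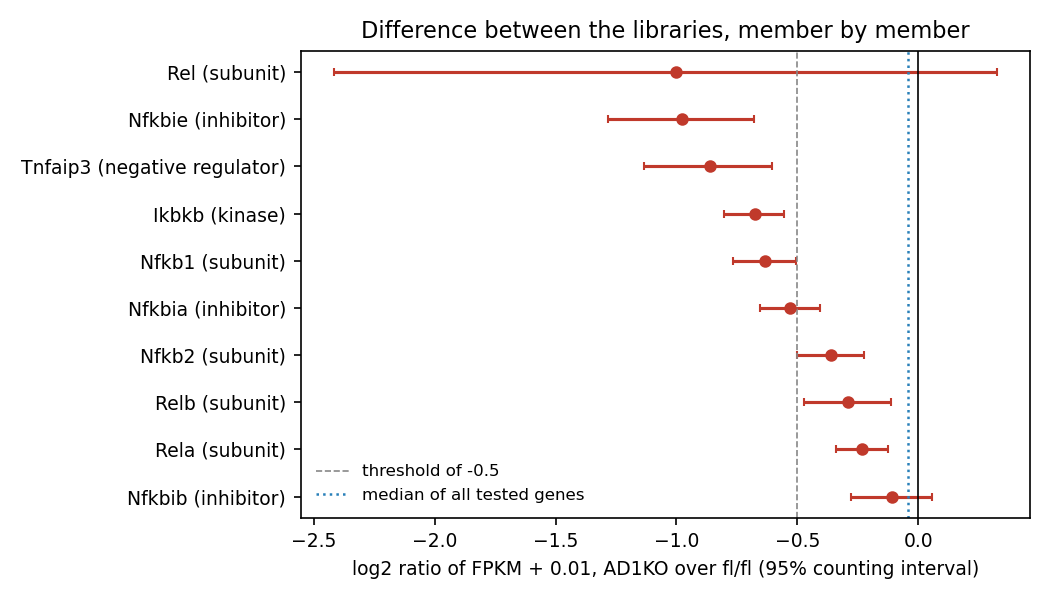
Log2 ratio of the AD1KO to the fl/fl library for each member (points, from FPKM with 0.01 added) with its 95% counting interval (bars). The dashed line marks -0.5 and the dotted line the median of all tested genes, -0.04. Ratios run from -1.0 for Rel, whose interval reaches 0.32, to -0.11 for Nfkbib.

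Promoter windows, 250 bases before to 50 after an annotated start, were found in the RefSeq sequences of build GRCm38.p6 for 7 of the 10 genes, with more than 1 start for Nfkb2 and Tnfaip3. The windows were searched on both strands for the κB consensus, the classical NF-κB binding sequence, which begins with GGG and ends with CC, and overlapping matches were counted as 1 site. At least 1 match was found for Nfkb2, Rel, Nfkbia, Nfkbie and Tnfaip3, and 0 matches for Rela and Nfkbib. By gene, that is 5 of the 7, beside 5.14% of all genes with a window. By window, 7 of the 10 member windows hold a match, beside 4.51% of all 32851 promoter windows. The sequences below are shown because they set the inhibitor gene Nfkbia, a feedback target of the pathway with a ratio of -0.53, beside Rela, the subunit with the smallest difference. Capitals mark the match, and each sequence reads 5′ to 3′ on the strand of the gene.
Nfkbia, chr12:55492598-55492897, minus strand: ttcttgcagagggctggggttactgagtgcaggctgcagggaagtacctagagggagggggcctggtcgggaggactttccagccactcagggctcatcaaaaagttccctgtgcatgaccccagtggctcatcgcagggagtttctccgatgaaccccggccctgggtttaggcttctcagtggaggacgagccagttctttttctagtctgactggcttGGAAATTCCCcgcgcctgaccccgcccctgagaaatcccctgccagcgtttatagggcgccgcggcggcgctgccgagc
Rela, chr19:5637291-5637590, plus strand: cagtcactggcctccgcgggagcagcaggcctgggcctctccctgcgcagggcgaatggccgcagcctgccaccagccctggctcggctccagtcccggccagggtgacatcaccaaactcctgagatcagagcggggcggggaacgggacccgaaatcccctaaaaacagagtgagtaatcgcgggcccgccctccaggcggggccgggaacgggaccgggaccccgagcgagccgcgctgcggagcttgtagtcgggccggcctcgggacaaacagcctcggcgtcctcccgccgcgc

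In Nfkbia the match starts 29 bases before the annotated start and, like the Tnfaip3 match printed here, reads as the consensus on the opposite strand. The 60-base stretches that follow hold matches of the other 4 genes, with the first start shown for Nfkb2 and the match nearest the start for Tnfaip3.
Nfkb2, chr19:46304687-46304746, plus strand: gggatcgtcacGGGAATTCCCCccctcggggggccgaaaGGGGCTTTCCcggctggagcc
Rel, chr11:23771027-23771086, minus strand: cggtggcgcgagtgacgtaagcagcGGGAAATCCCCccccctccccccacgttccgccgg
Nfkbie, chr17:45555569-45555628, plus strand: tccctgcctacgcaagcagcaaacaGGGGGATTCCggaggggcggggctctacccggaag
Tnfaip3, chr10:19015388-19015447, minus strand: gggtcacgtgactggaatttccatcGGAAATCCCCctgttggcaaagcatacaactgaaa

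The first Nfkb2 window held 2 sites, 39 and 11 bases before the start, its other windows held sites of their own, and the site of Rel lay 92 bases before it. In Nfkbie the site lay 106 bases before the start. Tnfaip3 held sites 125 and 12 bases before 1 of its starts and none in the window of the other. Rela and Nfkbib, the genes without a match, had ratios of -0.23 and -0.11, and the 5 genes with a match had ratios from -1.0 to -0.36. The counting intervals of Nfkb2 and Rela overlapped, however, and that of Rel, at -1.0, held 0. Nfkb1, Relb and Ikbkb have no window. Whether a match goes with the size of a ratio was not tested. A match is a run of letters and not a measured binding site, and which start is used in gWAT was not measured. The windows of the 7 genes held 15 to 42 CpG dinucleotides, the bases DNMT1 methylates, beside a median of 7 over all windows. The exception was the Tnfaip3 window without a match, which held 6. Methylation at these windows was not analysed here.

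**Figure D2:**
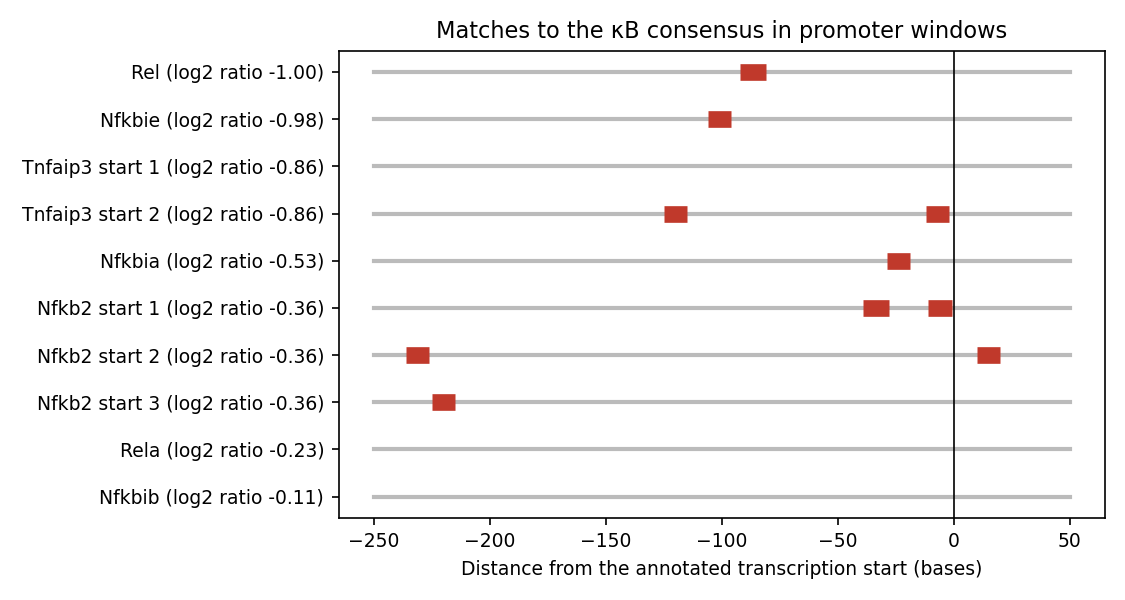
Map to scale of the promoter windows of 7 members (grey lines, 1 per annotated start, from 250 bases before to 50 after it), ordered by the log2 ratio of the gene, with matches to the κB consensus as red blocks. Nfkb2 windows 2 and 3 overlap and share a site. Rela (-0.23) and Nfkbib (-0.11), at the foot, hold no match. A relation between match and ratio was not tested.

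Among the 10 genes the inhibitor Nfkbia was the most abundant in both libraries, followed by Rela and Nfkbib. In fl/fl the order went on with Ikbkb, Nfkb2, Nfkb1, Relb, Nfkbie, Tnfaip3 and Rel, from 23.2 FPKM down to 0.37. The counting intervals of Nfkb2 and Nfkb1 overlapped there, as did those of Nfkb1 and Relb, so that these neighbours could not be ordered at this depth. In AD1KO, Nfkb2, Ikbkb, Relb and Nfkb1 followed each other with overlapping intervals, at 14.5, 14.5, 12.4 and 11.01 FPKM. Nfkbie, Tnfaip3 and Rel kept the last places. These intervals use the transcript length listed in the table. With the shortest annotated transcripts, Ikbkb also overlapped Nfkbib and Nfkb2 in fl/fl, Nfkbib overlapped Rela in AD1KO, and Nfkbie overlapped Tnfaip3 in both libraries.

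**Figure D3:**
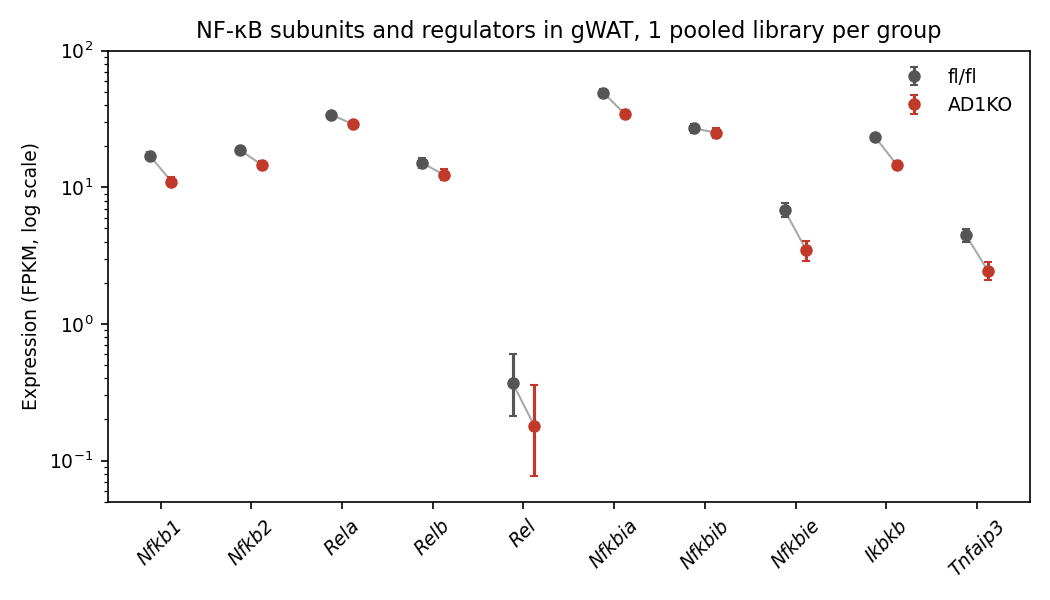
Expression in FPKM on a log scale of the 10 members in the fl/fl library (grey) and the AD1KO library (red), with 95% counting intervals as bars. Every red point lies below its grey neighbour, and the intervals, from the listed transcript lengths, overlap for Rel and Nfkbib.

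Rela (gene 19697, chromosome 19 of mm9, 5637483 to 5648130, plus strand) encodes RelA, the subunit that carries most canonical transactivation. Its level was 34.1 FPKM in the fl/fl pool and 29.0 FPKM in the AD1KO pool. The AD1KO library was lower by a log2 ratio of -0.23 (interval -0.34 to -0.13), a difference larger than counting error and smaller than the 0.5 threshold. Nfkb1 (gene 18033, chromosome 3, 135247619 to 135354511, minus strand), whose product is the usual partner of RelA, had 17.1 and 11.01 FPKM, which stand for about 1215 and 774 reads. Its ratio of -0.63 (interval -0.77 to -0.50) was a larger decrease than that of Rela, and the intervals did not overlap. The FPKM of Nfkb1 relative to that of Rela was therefore 0.502 in fl/fl and 0.38 in AD1KO.

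Nfkb2 (gene 18034, chromosome 19, 46379227 to 46386580, plus strand), the precursor of the noncanonical subunit, was measured at 18.7 and 14.5 FPKM in the same order, for a ratio of -0.36 (interval -0.50 to -0.23). Relb (gene 19698, chromosome 7, 20191566 to 20214787, minus strand), its dimer partner, was at 15.1 and 12.4 FPKM, a ratio of -0.29 (interval -0.47 to -0.11). Nfkb2 and Relb thus differed by similar amounts, with overlapping intervals, and both missed the threshold of -0.5. Rel (gene 19696, chromosome 11, 23641514 to 23670970, minus strand), which encodes c-Rel, the lymphoid and myeloid subunit, was at 0.37 and 0.18 FPKM. Those levels stand for about 16 and 8 reads, and the ratio of -1.0 had an interval from -2.42 to 0.32. A difference in Rel was thus not detectable at this depth, although its ratio is the lowest of the 10.

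Summed over the 5 subunits, the level was 85.4 and 67.1 FPKM, which is -0.35 on the log2 scale. Rela held the largest share of that sum, 39.9% in fl/fl and 43.2% in AD1KO. The share of Nfkb1 was 20.03% and 16.4%, the largest shift downward, whereas Nfkb2 held 21.9% and 21.7% and Relb 17.7% and 18.5%. Rel held 0.433% and 0.268%.

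Nfkbia (gene 18035, chromosome 12, 56590398 to 56593634, minus strand) encodes IκBα, the inhibitor that is degraded first on stimulation and made again by NF-κB. The fl/fl library held 49.4 FPKM of it and the AD1KO library 34.3, and the ratio was -0.53 (interval -0.65 to -0.40). Its interval spans the threshold, and under 3 other scalings of the libraries its ratio was -0.49 to -0.44, short of it. Nfkbie (gene 18037, chromosome 17, 45692665 to 45700118, plus strand), which encodes IκBε, another inducible inhibitor, was at 6.80 and 3.45 FPKM, a ratio of -0.98 (interval -1.28 to -0.68). Nfkbib (gene 18036, chromosome 7, 29543270 to 29552531, minus strand), which encodes IκBβ, was at 27.1 and 25.1 FPKM, a ratio of -0.11 (interval -0.28 to 0.06). A difference in Nfkbib was not detectable at this depth.

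The 3 inhibitors thus spread from near 0 to almost -1, and no interval of any of them overlapped that of another. Relative to Rela, the FPKM of Nfkbie was 0.2 in fl/fl against 0.119 in AD1KO, that of Nfkbia 1.45 and 1.18, and that of Nfkbib 0.794 and 0.865. The summed inhibitor level over the summed subunit level was 0.976 and 0.936, a log2 difference of -0.06. The inhibitor mRNAs as a sum therefore moved by about as much as the subunit mRNAs as a sum.

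Ikbkb (gene 16150, chromosome 8, 23769684 to 23817061, minus strand) encodes IKKβ, the kinase that phosphorylates IκB proteins in the canonical route. The AD1KO level of 14.5 FPKM stood against 23.2 FPKM in fl/fl, a ratio of -0.68 (interval -0.80 to -0.55). The other subunits of the complex had ratios above 0. Chuk, which encodes IKKα, was at 6.80 and 6.98 FPKM (ratio 0.04, interval -0.16 to 0.24), and the scaffold gene Ikbkg at 6.84 and 8.08 FPKM (ratio 0.24, interval 0.10 to 0.38). With the listed transcript length, the interval of Ikbkb lay below those of both. Ikbkb has 5 coding transcripts in the GENCODE annotation, from 300 to 3977 bases. With reads estimated from the shortest of these, 75 and 47, the interval widened to -1.22 to -0.11, which still lay below 0. It overlapped the interval of Chuk from the listed length. The shortest transcripts of Chuk and Ikbkg were not used, so no comparison on a like basis was made with them.

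Tnfaip3 (gene 21929, chromosome 10, 18720716 to 18735463, minus strand) encodes a ubiquitin-editing enzyme that shuts NF-κB signalling off and that NF-κB induces. Levels of 4.46 and 2.45 FPKM were measured, about 341 and 185 reads. The ratio was -0.86 (interval -1.13 to -0.60), second to Nfkbie among the members with more than 100 reads in each library. With the shortest annotated transcript the interval reached 0.13, and that of Relb then reached 0.003, so that 6 of the 10 genes in place of 8 had the whole interval below 0. Over the 45 pairs of members, the intervals of 19 pairs did not overlap, and with the shortest transcripts those of 9 pairs. The pairs that stayed apart include Nfkb1 and Rela and the 3 pairs of inhibitors. The spread between animals behind these differences is unknown.

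The rest of the pathway was described by 104 genes grouped by role, of which 103 were tested. In AD1KO 46 of the 103 were lower by at least 0.5 and 3 were higher, beside the 19.1% and 14.3% of all tested genes, with a median ratio of -0.43. These counts go by the ratio alone, and the counting intervals of 24 of the 103 held 0. Of the 10 ligands 7 were lower and 0 higher, led by Lta, a lymphocyte ligand, at 1.08 and 0.22 FPKM (ratio -2.25, interval -4.05 to -0.90). The Lta levels stand for about 25 and 5 reads, and the intervals of 5 of the 10 ligands held 0. Of the 13 receptors 8 were lower and 0 higher. Cd40, a receptor of antigen-presenting cells that feeds both routes, was at 10.6 and 2.81 FPKM (ratio -1.91, interval -2.28 to -1.54). Ltbr, the receptor that starts the noncanonical route in stromal and parenchymal cells, had the highest ratio of the group, 0.16 (interval 0.06 to 0.25), with 45.2 and 50.4 FPKM.

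Among 24 adaptors and ubiquitin enzymes 6 were lower and 0 higher, with a median ratio of -0.33. Traf1, a signalling adaptor that NF-κB induces, was at 4.02 and 1.75 FPKM (ratio -1.20, interval -1.53 to -0.87). Tab3, a cofactor of the kinase TAK1, was at the other end with 1.85 and 2.57 FPKM (ratio 0.47, interval 0.21 to 0.74). Of 9 kinase complex genes and other kinases 3 were lower and 0 higher. These were Prkcb, a protein kinase C of immune cells, at 8.29 and 3.90 FPKM (ratio -1.09, interval -1.24 to -0.94), Ikbke, an inducible IKK-related kinase, at 17.3 and 8.50 FPKM (ratio -1.03, interval -1.19 to -0.86), and Map3k14. Map3k14 encodes NIK, the kinase of the noncanonical route, and was at 4.53 and 2.81 FPKM (ratio -0.69, interval -0.97 to -0.41). Traf3, which holds NIK down in resting cells, was at 3.93 FPKM in both libraries (interval -0.19 to 0.18).

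The atypical inhibitors, nuclear proteins that tune NF-κB at its target genes, were lower in 3 of 4 cases. Nfkbid was at 5.36 and 2.46 FPKM (ratio -1.12, interval -1.52 to -0.74), Nfkbiz at 4.59 and 2.35 FPKM (ratio -0.96, interval -1.27 to -0.67) and Bcl3 at 14.6 and 8.13 FPKM (ratio -0.85, interval -1.08 to -0.62). The fourth, Nfkbil1, was at 11.6 and 11.95 FPKM (ratio 0.04, interval -0.21 to 0.28). Among 17 negative regulators 4 were lower and 1 higher, and their median ratio was -0.18. The lowest were Nlrc5, better known as an activator of MHC class I genes, with 15.7 and 5.88 FPKM (ratio -1.41, interval -1.56 to -1.26), and Tnip3, a partner of Tnfaip3, with 8.15 and 3.09 FPKM (ratio -1.40, interval -1.64 to -1.16). Tnip1, another partner of Tnfaip3, had a ratio of 0.13 (interval 0.01 to 0.25), and the deubiquitinase gene Cyld one of -0.36 (interval -0.54 to -0.18). Rnf11, also of the Tnfaip3 complex, was the gene that was higher, at 66.9 and 103 FPKM (ratio 0.62, interval 0.54 to 0.69).

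Of 26 tested target genes 15 were lower and 2 higher in AD1KO, with a median ratio of -0.76. The counting intervals of 6 of the 26 held 0. The lowest were the chemokine genes Cxcl9, at 146 and 12.4 FPKM (ratio -3.56), and Cxcl10, at 52.0 and 8.36 FPKM (ratio -2.63), both of which interferon also induces. The higher genes were Mmp9, a matrix protease, at 1.03 and 2.43 FPKM (ratio 1.23, interval 0.78 to 1.72), and Saa3, an acute-phase gene of adipocytes and macrophages, at 156 and 244 FPKM (ratio 0.64, interval 0.53 to 0.75). The target list was thus not uniform. Saa3, and Sod2, a mitochondrial enzyme gene that NF-κB induces and that had a ratio of 0.13, were chosen after their values were seen. The pathway genes nearest to the median of the members over the 2 libraries were Cd40lg (-0.57, interval -2.07 to 0.84), Tnip2 (-0.60) and Tlr4 (-0.56). With 2 libraries this likeness is a single ratio, and many genes share it.

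**Figure D4:**
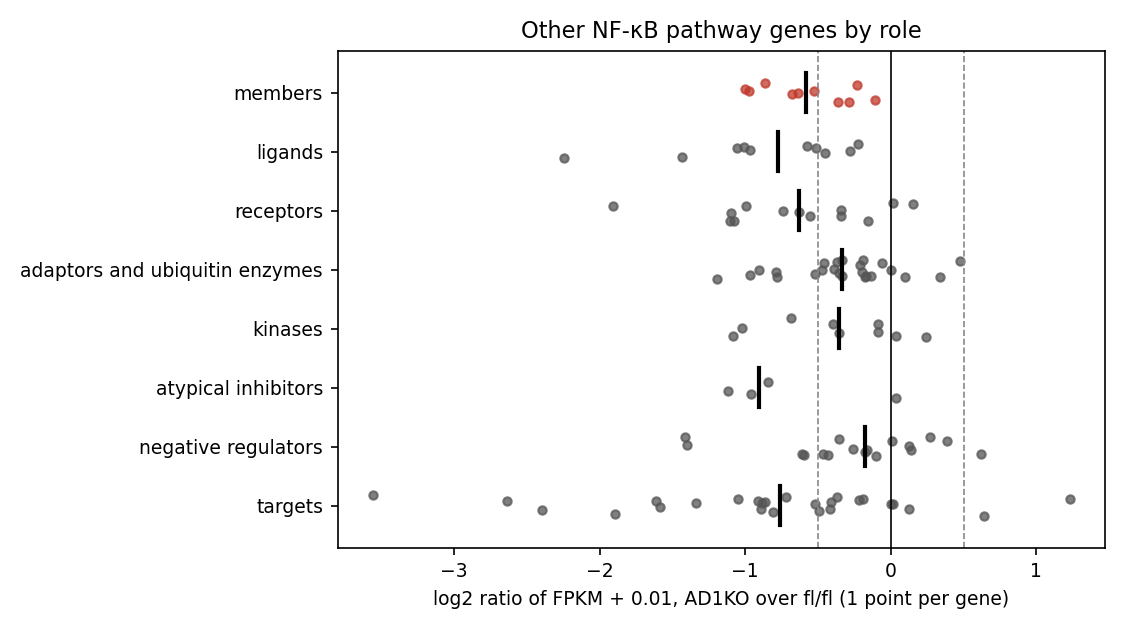
Log2 ratio of AD1KO over fl/fl for the 10 members (red) and the other pathway genes by role (grey), 1 point per tested gene, with the median of each group as a black bar and dashed lines at -0.5 and 0.5. The medians run from -0.90 for the atypical inhibitors to -0.18 for the negative regulators, and single targets from -3.56 to 1.23.

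Marker genes of leukocytes, macrophages and T cells were lower in AD1KO, as the NF-κB genes were, and those of adipocytes and mesothelial cells were higher. All 5 pan leukocyte markers were lower, with ratios from -1.29 to -1.16 and a summed level of 784 FPKM in fl/fl and 344 in AD1KO, and Ptprc, which encodes the leukocyte antigen CD45, went from 27.3 to 11.3 FPKM. All 10 macrophage markers were lower (-1.45 to -0.63, summed level 6451 and 2848 FPKM), as were all 7 T cell markers (-1.85 to -1.50, summed level 73.2 and 22.5 FPKM). Of the B cell markers 2 of 5 were lower (summed level 89.2 and 59.8 FPKM), and of the dendritic markers 3 of 5 were lower and 1 higher (12.2 and 9.89 FPKM). In the other direction, 7 of 8 adipocyte markers were higher (0.51 to 0.96, with Pparg at 0.37, summed level 16608 and 25364 FPKM), as were 4 of 4 mesothelial markers (0.76 to 1.07, 70.6 and 133 FPKM). Endothelial markers had 1 of 5 higher (81.9 and 100.2 FPKM), stromal progenitor markers 1 lower and 1 higher of 6 (1253 and 1432 FPKM), and lymphatic markers 0 of 3 tested past the threshold (26.3 and 25.8 FPKM), with Prox1 listed at 0 in both libraries. The 3 reproductive tract markers summed to 7.40 and 0.56 FPKM, and among them Pax8, from about 11 reads in fl/fl, was listed at 0 in AD1KO. Their median ratio depends on the pseudocount, -4.29 with 0.01 FPKM and -1.74 with 1 FPKM.

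The ratios of the 10 NF-κB genes, from -1.0 to -0.11, lay above the range of the pan leukocyte markers and below that of the adipocyte markers. The intervals of Rel and Nfkbie nevertheless reached into the leukocyte range. With reads from the shortest transcripts, those of Tnfaip3 (-1.85 to 0.13) and Ikbkb (-1.22 to -0.11) did too. The ratios of Rel, Nfkbie, Tnfaip3, Ikbkb and Nfkb1 lay within the range of the macrophage markers. Those of Ikbkb, Nfkb1, Nfkbia, Nfkb2, Relb, Rela and Nfkbib lay within the range of the B cell markers, -0.70 to -0.03. The stromal progenitor range, -0.70 to 0.50, held the same genes, and the wide dendritic range, -1.89 to 0.68, held all 10. A likeness to a single cell type can therefore not be read from these ranges. Cd14, which stands both among the receptors and among the macrophage markers, alone sets the upper end of the macrophage range, -0.63. The next macrophage marker, Mrc1, had a ratio of -0.80, and those of Ikbkb and Nfkb1 lay between Mrc1 and Cd14. In bulk tissue, fewer cells of a type and less RNA per cell cannot be told apart, and the part of the cell mixture in the values of the NF-κB genes was not tested.

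**Figure D5:**
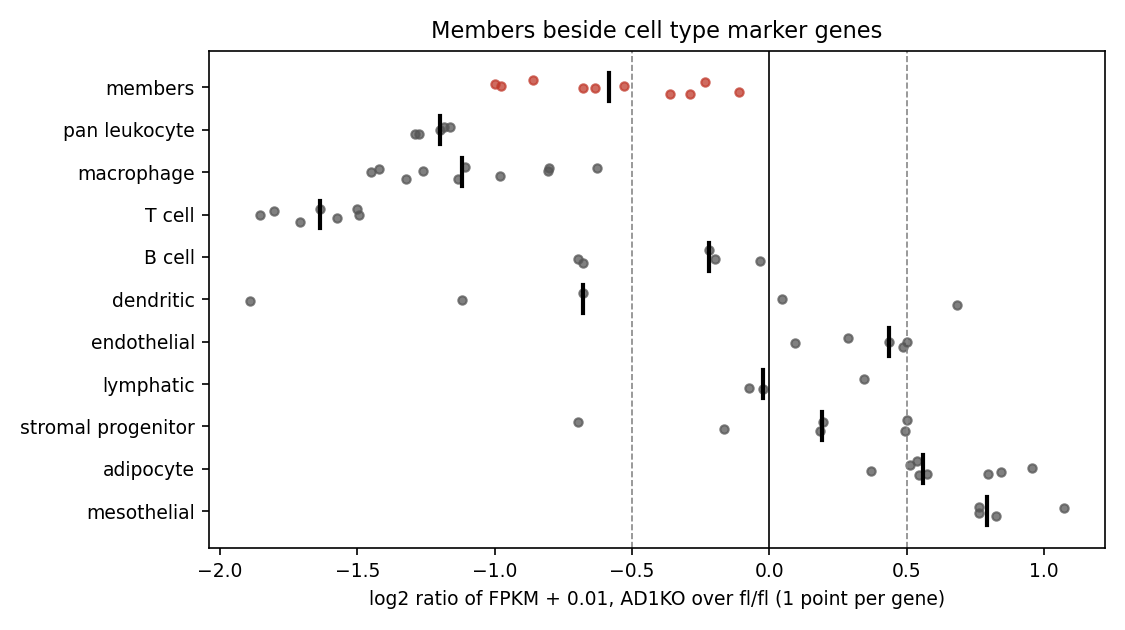
Log2 ratio of AD1KO over fl/fl for the 10 members (red) and for marker genes of 10 cell types (grey), 1 point per tested gene, with medians as black bars and dashed lines at -0.5 and 0.5; the reproductive tract markers are not drawn. The members, with a median of -0.58, lie between the pan leukocyte markers (-1.20) and the adipocyte markers (0.56).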

How the data were processed

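Gene expression was measured by RNA-seq of poly(A)-selected RNA from gWAT, with 1 library per group made from pooled RNA of 4 animals. Per the labels and methods, reads passing quality filters were mapped to the mm9 mouse genome by the sequencing company for the authors. The aligner and the quantification program are not given in the sources used here. The authors deposited FPKM for both libraries in a single table, rounded to 2 decimals, with 0 written as 0.01. The same table holds the authors' own log2 fold changes, P-values and FDR, which were not used. The RRBS samples were not analysed here.

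Values of 0.01 were set to 0. Depth was estimated as the number of reads, with a length correction of 117 bases in both libraries, for which low FPKM values lay closest to whole reads. Of 962 low values in fl/fl and 997 in AD1KO, 84.7% and 83.5% lay within 0.2 reads of a whole number. Reads per gene were then FPKM times corrected length times depth, which counts too many reads where short transcripts dominate. The steps were tested on data simulated with the same listed lengths and counting error only. That check could not show errors from a wrong transcript length. Reads have no molecular identifiers, so intervals cover counting error only.

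The members, gene lists and threshold were chosen with earlier results of these data known. Beside the members, the genes named are the 2 lowest and the highest ratio of each role list at 1 FPKM or more, a fixed set of pathway genes, and the 3 nearest the median of the members. A gene that this rule names is not reported here. Nfkb1, Relb and Ikbkb have no window in the promoter table. Alternatives were scaling by TMM (30% trimming on ratios, 5% on levels), upper quartile or median of ratios, pseudocounts of 0.1 and 1 FPKM, no filter or a minimum of 1 FPKM, a threshold of 1, and the whole interval past the threshold. Intervals from the shortest coding transcript were added after the data were seen. Computations ran in Python 3.11.15 (SciPy 1.17.1, NumPy 2.4.6, pandas 2.3.3; plots in Matplotlib 3.10.9), with gene positions from GENCODE vM1 on mm9.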

Additional observations from a re-analysis of the deposited data

How the results depend on the processing

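No paired analysis was possible because each group was a single pooled library. All 10 NF-κB genes kept a ratio below 0 in each of the 7 alternatives that give ratios, with the exception of Rel under the minimum of 1 FPKM, where it was not tested. Pseudocounts and filters cannot change the sign of a ratio, so only the scalings bear on this. The scalings were mild, with a factor of at most 1.0638 on AD1KO, under which Nfkbib was at -0.02. The number of members lower in AD1KO, 6, was 5 under each of the 3 scalings, where Nfkbia missed the threshold, and 5 with a pseudocount or a minimum of 1 FPKM, where Rel dropped out. With a threshold of 1 it was 1, Rel. The whole interval lay past -0.5 for 4, namely Nfkbie, Tnfaip3, Ikbkb and Nfkb1, and with reads from the shortest transcripts for 1, Nfkbie. The median ratio of the members was -0.43 with a pseudocount of 1 FPKM, and from -0.63 to -0.53 when each member was left out in turn.

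A threshold of 1 left 22 pathway genes lower and 1 higher, and 1417 and 910 of all tested genes, in place of 3029 and 2265. A pseudocount of 1 FPKM gave 1661 and 965, and the whole interval past the threshold 1316 and 665, stricter settings by construction. A minimum of 1 FPKM left 1281 higher, as fewer genes were tested. Under upper quartile scaling 2609 genes were lower and 2795 higher. At this depth a difference in Rel, from about 16 and 8 reads, could not be resolved.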

Other observations

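The κB consensus was also set beside the expression of all genes with a RefSeq promoter window, a description made after the data were seen and without a test. Of 27025 genes with a window 5.14% hold a match in at least 1 of their windows. Among the 755 tested genes with a match the median log2 ratio was -0.07 and 23.2% were lower in AD1KO by at least 0.5. Among the 11146 tested genes with a window and no match the median was -0.04 and 17.4% were lower. The 5 NF-κB genes with a match, at -1.0 to -0.36, thus lie below both medians, as do Rela and Nfkbib, which have no match. Immune genes may differ from other genes in promoter composition, which was not tested.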
